A study of Mus musculus with 2 samples.

Results

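Krt8, Krt18, Sparc, Hbegf, Rasl11a, Hmgn3, Prr29, Sdc4, Tmem176a and Tmem176b are 10 genes, of 27998 in the count matrices, that encode structural, matrix, membrane, signalling or chromatin proteins and no cytokine or lineage factor of lymphocytes. They were chosen by symbol, because earlier results of these same data had placed them among the genes that stood out in fetal liver cells resembling lymphoid tissue inducer (LTi) cells. Their higher level in those cells is therefore a description of the choice and not a finding. All 10 symbols were found in both matrices. Described here are their order across the other cells and their relations to Il22 and to each other in single cells. Their level in the matching cells of adult marrow is also given, beside a fetal level that the choice fixed as high.

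The cells are αLPs, lymphoid progenitors with the integrin α4β7 on their surface, taken from untreated wild-type B6 mice. One group was fetal liver taken before birth (E14.5) and the other was bone marrow of adults, 6 to 8 weeks old by their label. In both, live cells were sorted as positive for CD45, CD127 and α4β7 and negative for lineage antigens, Flt3 and CD25, and 1 droplet library was made per tissue. The number of animals behind each library is not given in the sources used here. With no replicates, no test between tissues was possible, no p-value is given, and every interval covers counting error only.

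LTi cells are innate lymphocytes of the fetus that start the formation of lymph nodes and Peyer's patches through lymphotoxin. Their relatives after birth, type 3 innate lymphoid cells (ILC3), release interleukin 22 (IL-22, from Il22), a cytokine that acts on epithelial cells and not on blood cells. Keratins 8 and 18 are partners in the intermediate filaments of simple epithelia, so their RNA in a CD45-positive sort is of interest in itself. TMEM176A and TMEM176B, membrane proteins of endosomes, are known to be expressed in ILC3.

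After cells with under 500 genes or over 10% of UMIs from mitochondrial genes were left out, 8583 fetal liver cells and 7258 bone marrow cells remained. UMIs are counts of distinct tagged RNA molecules. The median depth per cell was 9294 UMIs for fetal liver and 3447.5 UMIs for bone marrow. A total of 19 barcodes occurred in both libraries. Xist, the RNA that marks the inactive X chromosome, had 252 counts per 1000000 UMIs (CPM) in fetal liver and 2 UMIs in all of bone marrow, so sex, tissue, age and library cannot be told apart. Doublets, droplets with a pair of cells, were not called.

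Cells were clustered in each library without the 10 genes and without Il22. Clusters 1 and 16 of fetal liver raised 10 and 8 of 11 LTi or ILC3 markers, Il23r, Lta, Cxcr5 and Cd4 among them, and are called LTi or ILC3-like. Together they held 1581 cells, 18.4% of the library (95% exact Clopper-Pearson interval 17.6 to 19.3%), with a median of 5897 UMIs against 10376 in the other 7002 fetal liver cells. Bone marrow cluster 12, with 169 cells (2.33%), raised 8 of the 11 markers and takes the same name, although MHC class II genes (H2-Eb1, Cd74, H2-Aa) also lead it. Clusters that raised fewer markers stayed outside the class, and 2 of them matter below. Fetal liver cluster 18 (1.36% of cells) was led by MHC class II genes and raised 3 of 11 markers, beside 4 NK or ILC1 markers. Fetal liver cluster 3 (11.7%) raised 2 of 11 markers, Il1r1 among them, beside 5 NK or ILC1 markers.

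The stretches before the starts of 3 of the genes are shown because Krt8 and Krt18 lie side by side and pair as proteins, while Rasl11a had the largest ratio with Il22 in the cells as sequenced. On mouse build GRCm38 (mm10), Krt8 spans chr15:101996698-102004482 on the minus strand and Krt18 spans chr15:102028180-102032027 on the plus strand, with 23697 bases between them. Rasl11a spans chr5:146845071-146847726 on the plus strand. The sequences are RefSeq promoter windows, cut to the bases before every annotated start, at chr15:102004483-102004592 (minus strand), chr15:102027966-102028179 (plus strand) and chr5:146844821-146845070 (plus strand). Capitals mark AGGTCA, the half-site bound by many nuclear receptors.

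Krt8: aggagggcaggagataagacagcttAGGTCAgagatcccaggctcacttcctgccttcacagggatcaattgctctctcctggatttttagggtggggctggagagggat

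Krt18: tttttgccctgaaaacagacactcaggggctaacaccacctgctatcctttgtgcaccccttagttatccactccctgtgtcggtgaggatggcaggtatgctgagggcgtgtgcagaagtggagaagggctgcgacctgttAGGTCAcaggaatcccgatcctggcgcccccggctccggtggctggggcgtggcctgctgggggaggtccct

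Rasl11a: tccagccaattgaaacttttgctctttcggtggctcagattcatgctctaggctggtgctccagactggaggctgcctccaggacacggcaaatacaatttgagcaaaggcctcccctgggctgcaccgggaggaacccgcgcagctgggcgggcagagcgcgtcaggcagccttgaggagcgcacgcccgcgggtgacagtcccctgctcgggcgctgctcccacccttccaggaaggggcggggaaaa

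RefSeq windows of 250 bases before the start were at hand for 8 of the 10 genes. AGGTCA, searched on both strands, was in 3 of their 11 windows, 1 each of Krt8, Krt18 and Sdc4, and in 14.0% of all 32851 windows. TGANTCA, the core bound by AP-1 and BATF, and TATAAA were in none of the 11 and in 6.75% and 12.4% of all windows. A match is only a description of these letters and not a site at which a factor was seen.

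In fetal liver, the keratin pair was present in a large share of the LTi or ILC3-like cells. Krt8 stood at 132 CPM in them and at 3.19 CPM in the other fetal liver cells, a 41.5-fold difference (log2 ratio 5.37, 95% exact interval 5.18 to 5.57). Krt8 UMIs were found in 42.0% of these cells and in 2.41% of the others, and, with every cell thinned to 2000 UMIs, in 19.6% and 0.681%. In B lineage-like cells (median 9327.5 UMIs), which should lack it, 1.08% of cells held a Krt8 UMI. Krt18 stood at 74.4 against 10.4 CPM, a 7.12-fold difference. Of all Krt8 UMIs of the library, 83.8% lay in the LTi or ILC3-like cells, against 47.1% of the Krt18 UMIs, so Krt18 was spread more widely.

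Clusters of at least 100 cells can be put in order, and for both keratins clusters 1 and 16 came first and second. Krt8 was at 142 CPM in cluster 1, 86.9 CPM in cluster 16, 25.7 CPM in cluster 18 and 9.87 CPM in cluster 3. The intervals of clusters 1 and 16 did not overlap for Krt8, while 14 of its 17 neighbouring pairs of clusters in the order did. After them, Krt18 was highest in cluster 17, at 20.1 CPM, which was led by the granulocyte genes Mpo and Camp, and in the erythroid-like cluster 14, at 19.2 CPM, where Krt8 was at 2.25 CPM.

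The surface and secreted members were next. Hbegf, a membrane-anchored growth factor that is shed to activate the EGF receptor, stood at 54.1 CPM in LTi or ILC3-like cells and 3.22 CPM in the others (16.8-fold). Sdc4, a transmembrane proteoglycan whose heparan sulfate chains bind growth factors, stood at 297 against 30.9 CPM (9.63-fold). Sparc, a secreted protein that binds collagen and calcium, stood at 53.4 against 2.39 CPM (22.3-fold). These 3 genes differed in where else they were found. Sdc4 reached 139 CPM in the B lineage-like cluster 15 and 140 CPM in cluster 3, whereas Sparc was under 9 CPM and Hbegf under 9 CPM in every ordered cluster but 1 and 16.

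Sparc was also the member detected in the fewest of these cells, 19.2%, with up to 10 UMIs in a cell, and its 10 highest cells held 10.9% of its UMIs in the class. No other member had more than 8.05% of its UMIs in its 10 highest cells. The class was thus uneven in Sparc.

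Of the intracellular members, Rasl11a, a small GTPase related to Ras, stood at 169 CPM in LTi or ILC3-like cells and 5.35 CPM in the others (31.6-fold), and 79.8% of its UMIs lay in the class. Hmgn3, a protein that binds nucleosomes, stood at 1026 against 58.0 CPM (17.7-fold) and was detected in 97.2% of the class. Prr29, a proline-rich protein, stood at 357 against 28.2 CPM (12.7-fold). Hmgn3 was thus found in nearly every LTi or ILC3-like cell as sequenced, and at 2000 UMIs still in 81.9%, against 10.8% of the other cells.

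Tmem176a and Tmem176b were the least restricted of the 10. Tmem176a stood at 283 against 55.3 CPM (5.12-fold) and Tmem176b at 377 against 74.2 CPM (5.08-fold), and the class held 39.0% and 38.9% of their UMIs. In cluster 18 Tmem176b was at 425 CPM, beside 413 CPM in cluster 1, and these intervals overlapped. The annotated models of the genes, on opposite strands (chr6:48840919-48847071 and chr6:48833818-48841496), overlap by 578 bases. Whether the counting used strand is not given in the sources used here, so reads of one could in part be counted for the other.

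In sum over the class, 10 of 10 members were at least 2-fold higher in LTi or ILC3-like than in other fetal liver cells, where 6.25% of 6660 genes with at least 10 CPM were. None was 2-fold lower, where 4.71% were. Their median log2 ratio was 3.87 and that of all genes 0.02. The choice of the members used this contrast, so nothing is read from either value. With each cell thinned to 5000 UMIs, LTi or ILC3-like cells held a UMI of a median of 5 of the 10 genes, and the other cells of a median of 1. Among 1032 thinned LTi or ILC3-like cells, 3 held none of the 10 and 4 held all of them. Among 6244 other cells, 45.7% held none.

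**Figure D1:**
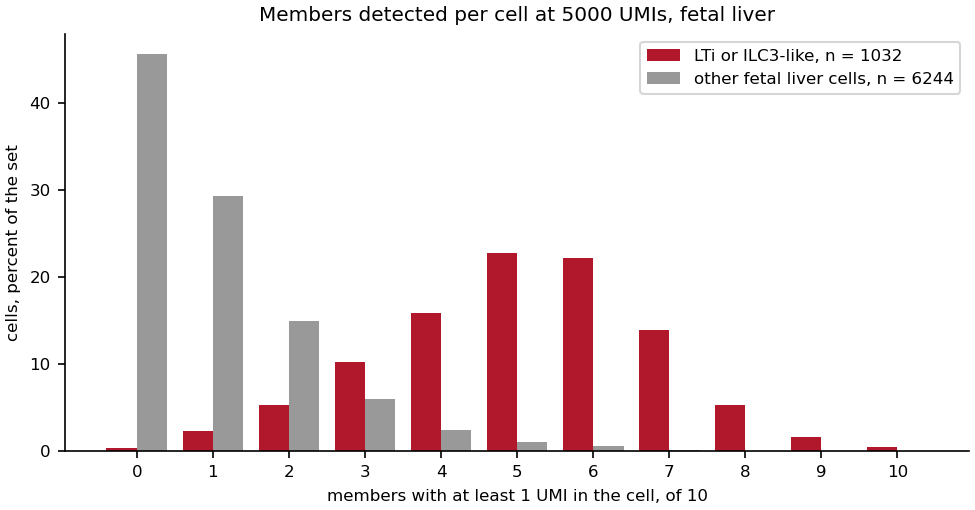
Percent of fetal liver cells (vertical axis) by how many of the 10 genes had at least 1 UMI after thinning to 5000 UMIs (horizontal axis), for 1032 LTi or ILC3-like cells (red) and 6244 other cells (grey). The red bars centre on 5 and 6 genes and the grey bars on 0 and 1.

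Inside the class, cluster 16 was the higher in Mki67, a mark of division, at 108 CPM against 10.8 CPM in cluster 1, and its median cell had 10167 UMIs against 5673. All 10 members were lower in cluster 16 than in cluster 1, and 1 of them by at least 2-fold, where 2.22% of 6666 genes were. None was 2-fold higher, where 5.33% were. Cluster 1 held 1397 of the 1581 cells of the class for which the members were chosen. The share of all genes lower in cluster 16 by any amount is not given here. Nothing is therefore read from these counts. The member lower by 2-fold was Hmgn3, at 553 against 1128 CPM (log2 ratio -1.03, -1.13 to -0.93). Tmem176a (161 against 309 CPM) and Tmem176b (211 against 413 CPM) came close to it, and Sparc was nearest to equal (log2 ratio -0.27, -0.63 to 0.07). Il22 was at 750 CPM in cluster 16 and 1014 CPM in cluster 1.

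**Figure D2:**
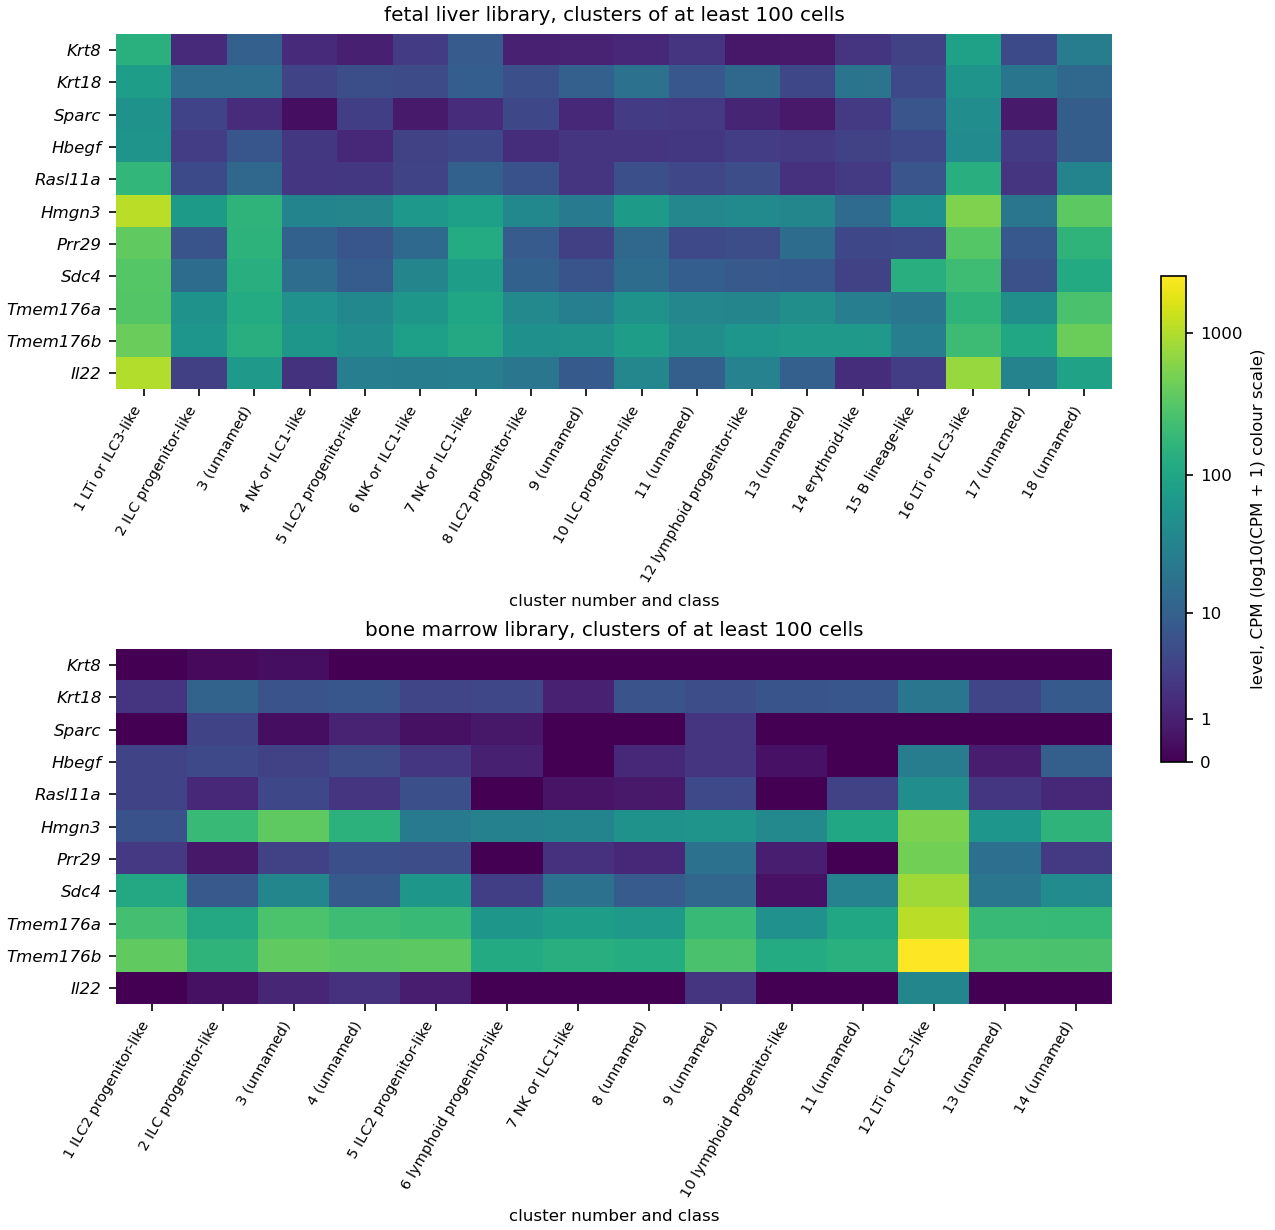
Level of the 10 genes and Il22 (rows) in each cluster of at least 100 cells (columns, with the class name) of the fetal liver and the bone marrow library, coloured by log10(CPM + 1). In fetal liver clusters 1 and 16 are brightest for Krt8, Sparc, Hbegf and Rasl11a, with cluster 18 and cluster 3 next for most rows, and in bone marrow cluster 12 is brightest for 8 of the 10 genes.

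The relation to Il22 was then read within the fetal LTi or ILC3-like cells. Il22 was detected in 809 of the 1581 cells (51.2%, exact interval 48.7 to 53.7%), with a median of 4 UMIs in those cells and up to 373 UMIs in 1 cell. Cells with and without an Il22 UMI differed little in depth, with medians of 6135 and 5590 UMIs. All 10 members had a higher level in the cells with Il22, but the differences were small beside those between cell classes. The share of all genes that were higher in these cells is not given here, so nothing is read from the count of 10.

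Rasl11a was at 201 CPM in cells with an Il22 UMI and 133 CPM in cells without, a 1.51-fold difference (log2 ratio 0.60, 0.45 to 0.74). It was the 1 member of 10 at or above 1.5-fold, where 0.953% of 6505 genes were, and none was 1.5-fold lower, where 1.88% were. Hbegf was at 63.7 against 43.2 CPM (log2 ratio 0.56, 0.31 to 0.82), Krt8 at 153 against 109 CPM (0.49, 0.33 to 0.65) and Krt18 at 85.1 against 62.3 CPM (0.45, 0.24 to 0.67). As sequenced, the other 6 members lay between 0.10 (Tmem176b) and 0.27 (Prr29). The counting interval of Sparc, at 55.7 against 50.7 CPM, held 0 (0.14, -0.11 to 0.39). Those of the other members lay above 0, but the share of all genes with such an interval is not given here. Nothing is therefore read from how many members had one. The median over the members was 0.26 and that over all genes -0.02.

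The count of members past 1.5-fold was at its threshold. It was 0 with each cell weighing the same, without cells that held a Mki67 or Top2a UMI, and with clusters drawn at the coarser resolution of 0.5, and 2 with cells thinned to 5000 UMIs. In the thinned cells the second member was Hbegf, with a log2 ratio of 0.82 beside 0.68 for Rasl11a. Tmem176a and Tmem176b were at 0.44 and 0.35 in the thinned cells, beside 0.19 and 0.10 as sequenced, while Prr29 and Sparc had smaller ratios than as sequenced.

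Cells were also set out by how much Il22 they held: 772 cells with 0 Il22 UMIs, 197 with 1, 166 with 2 to 3, 185 with 4 to 9 and 261 with 10 or more. Rasl11a was at 133, 167, 168, 201 and 243 CPM in this order, and the intervals of the lowest and the highest set did not overlap. Krt8 was at 109, 118, 168, 160 and 163 CPM, and in cells thinned to 5000 UMIs and sorted anew at 117, 150, 187, 148 and 181 CPM. Krt18 was at 62.3, 72.9, 85.8, 82.8 and 94.1 CPM.

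Sdc4 was at 271, 305, 308, 320 and 338 CPM, a shallow slope, and Hbegf at 43.2, 47.3, 72.1, 56.7 and 74.0 CPM. Hmgn3 lay between 972 and 1125 CPM with no steady order as sequenced, but in the thinned cells it was at 907, 983, 1005, 1073 and 1123 CPM. The intervals of its lowest (870 to 944) and highest thinned set (1050 to 1199) did not overlap. Those of Tmem176a, at 241 CPM with no Il22 and 382 CPM with 10 or more in the thinned cells, did not overlap either. Nor did those of Tmem176b, at 336 and 459 CPM. Sparc had the least orderly series, at 50.7, 68.9, 38.3, 81.1 and 41.8 CPM. The cells with the most Il22 were below those with none, but these intervals overlapped (33.1 to 52.0 and 44.5 to 57.5 CPM). Mki67 was at 28.9 CPM with no Il22 UMI and 34.4 CPM with 10 or more, and a part of cell division or depth in these differences was not tested beyond the alternatives given.

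With each cell thinned to 5000 UMIs and sorted by the Il22 UMIs left, the mean number of the 10 genes detected was 4.72 in 513 cells with none, 5.18 in 128 cells with 1, 5.40 in 110 cells with 2 to 3, 5.54 in 123 cells with 4 to 9 and 5.77 in 158 cells with 10 or more. The share of cells with at least 5 of the genes went from 57.3% to 81.0% over the same sets. Krt8 was detected in 37.0% of the thinned cells with no Il22 and in 48.7% of those with 10 or more, Krt18 in 24.8% and 34.8%, and Sparc in 18.7% and 13.9%.

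**Figure D3:**
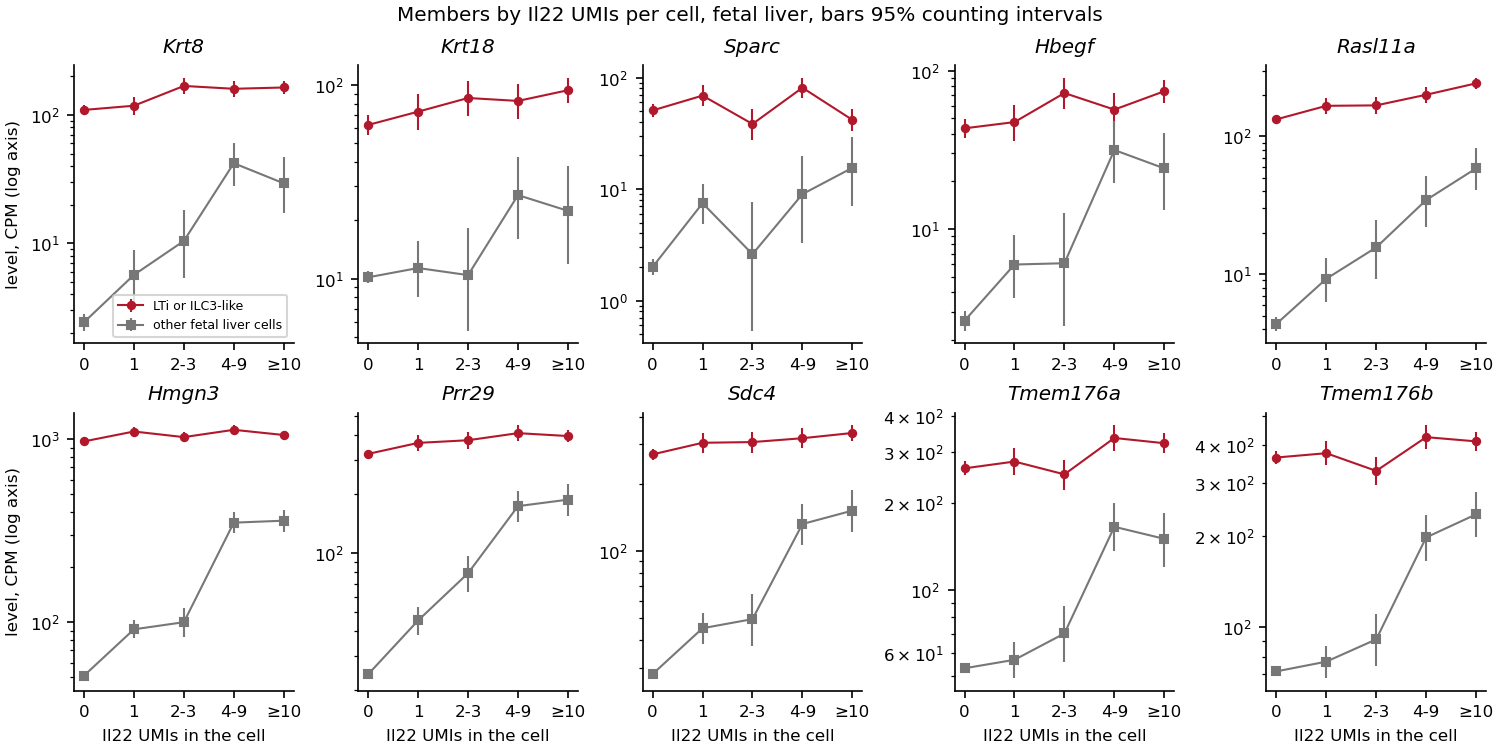
Level of each gene in CPM (log axis) against the Il22 UMIs in the cell (5 sets) for LTi or ILC3-like cells (red circles) and other fetal liver cells (grey squares), with 95% counting intervals. The red lines are shallow, steadiest for Rasl11a (133 to 243 CPM) and with no order for Sparc, and the grey lines stay below them and are higher at 4 or more Il22 UMIs.

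Pearson's r across the 1032 thinned LTi or ILC3-like cells was taken on log-transformed UMIs per cell. With Il22 it was -0.03 for Sparc and between 0.09 and 0.16 for the other 9 members. It was highest for Sdc4 (0.16), Hbegf (0.16) and Rasl11a (0.15). These are descriptions over cells of 1 library, sparse in UMIs, and weak. Between members, the median r over 45 pairs was 0.07. Tmem176a and Tmem176b stood apart at 0.59, and the part of their overlapping models in this value was not tested. Next came Hmgn3 with Tmem176b (0.22) and with Tmem176a (0.18), and then Krt8 with Krt18 (0.16). The keratin partners were thus only loosely matched from cell to cell at this depth.

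Outside the class, 437 of 7002 fetal liver cells (6.24%) held an Il22 UMI, most of them 1. With 0, 1 and 2 to 3 Il22 UMIs, Krt8 was at 2.43, 5.67 and 10.4 CPM, and with 4 to 9 and with 10 or more at 42.0 and 29.3 CPM. Hmgn3 went from 51.0 CPM in cells with no Il22 to 350 and 358 CPM in the 2 highest sets, and Rasl11a from 4.35 to 34.5 and 58.6 CPM. As sequenced, all 10 members were higher in both highest sets than in cells with no Il22, although those sets hold 55 and 39 cells. The share of all genes higher in those sets is not given here, so nothing is read from the count of 10. Every member was below its level in the LTi or ILC3-like cells with as much Il22. Thinned to 5000 UMIs, the 14 other cells with 10 or more had 0 Krt8 and 0 Sparc UMIs, where the cells with none were at 3.10 and 1.77 CPM. The counting interval of both 0 counts reached up to 52.7 CPM, so no lower level can be read from them.

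Of these 94 cells, 35 were in cluster 3, 9 in cluster 7 (NK or ILC1-like), 8 in cluster 8 (ILC2 progenitor-like) and 7 in cluster 18. Their median depths were 10005 and 12911 UMIs, beside 10287 in the cells with no Il22. Doublets, mixing of free RNA and cells placed on the other side of a cluster border were not tested as parts of this.

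Over whole libraries, the 10 genes parted between the tissues. Fetal liver held 1603 Krt8 UMIs (17.6 CPM) and bone marrow 2 (0.0668 CPM). Rasl11a was at 23.5 against 3.01 CPM (log2 ratio 2.97, 2.66 to 3.29), Prr29 at 64.8 against 11.1 CPM (2.54, 2.38 to 2.71) and Krt18 at 17.5 against 6.35 CPM (1.47, 1.25 to 1.69). In these 4 the fetal level was at least 2 times the marrow level, among 8 members with at least 10 CPM in either library, where 7.25% of 6938 genes were. Sparc (8.06 against 1.00 CPM) and Hbegf (8.87 against 3.34 CPM) were under that level in both. Krt8, Rasl11a and Krt18 reached 10 CPM only through fetal liver. The members were chosen as high in LTi or ILC3-like cells, 18.4% of the fetal and 2.33% of the marrow cells. Nothing is therefore read from the count of 4.

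Tmem176a and Tmem176b went the other way, at 80.6 against 170 CPM (-1.07, -1.12 to -1.02) and 108 against 272 CPM (-1.33, -1.38 to -1.29). They were 2 of 8 members at least 2-fold lower in fetal liver, where 10.9% of genes were. Tmem176a lay within 2-fold under 5 of 7 alternatives: -0.91 with a median-ratio factor, -0.94 with TMM, -0.94 with each cell weighing the same, -0.92 in cells with at least 1000 genes and -0.85 in cells thinned to 2000 UMIs. Hmgn3 (166 against 122 CPM, log2 ratio 0.45) and Sdc4 (60.5 against 37.9 CPM, 0.67) lay within 2-fold, but Hmgn3 was at 1.04 with each cell weighing the same and Sdc4 at 1.31 in cells with at least 1000 genes.

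Leaving out the LTi or ILC3-like cells of both libraries changed the tissue difference of most members. Then 1 member with at least 10 CPM was at least 2-fold higher, Prr29, at a log2 ratio of 2.97 (28.2 against 3.60 CPM), and Hmgn3 turned from 0.45 to -0.98. Krt8 then stood at 3.19 against 0.0679 CPM (log2 ratio 5.56), which rests on 2 marrow UMIs, and Sparc (1.23) and Rasl11a (1.21) also kept log2 ratios above 1 at levels under 10 CPM. Hbegf was left at 0.12. With each cell weighing the same instead of by its depth, 7 members were at least 2-fold higher.

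In the LTi or ILC3-like cells themselves, the members differed in direction. Krt8 and Sparc had 0 UMIs in the 169 marrow cells, which hold 486964 UMIs in all, so that 3 UMIs would be 6.16 CPM. Against that limit Krt8 was at least 21.5-fold higher and Sparc at least 8.67-fold higher in the fetal cells. Krt18 was at 74.4 against 20.5 CPM (log2 ratio 1.86, 0.97 to 2.92), Rasl11a at 169 against 45.2 CPM (1.90, 1.30 to 2.58) and Hbegf at 54.1 against 26.7 CPM (1.02, 0.23 to 1.94).

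The marrow values of Krt18, Hbegf and Rasl11a rest on 10, 13 and 22 UMIs. In these 5 members the fetal cells were at least 2-fold higher, as were 1058 of 7281 genes. The members were chosen as high in the fetal class, and Krt8 and Sparc reached 10 CPM only through it. Nothing is therefore read from this count. Hmgn3 (1026 against 536 CPM, 0.94) and Prr29 (357 against 466 CPM, -0.38) were within 2-fold.

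Both TMEM176 genes and Sdc4 were lower in the fetal cells. Tmem176b was at 377 CPM in fetal and 2477 CPM in marrow LTi or ILC3-like cells (-2.72, -2.81 to -2.62), Tmem176a at 283 against 1121 CPM (-1.99, -2.12 to -1.85) and Sdc4 at 297 against 830 CPM (-1.48, -1.63 to -1.33). These 3 were at least 2-fold lower, as were 1114 genes. In either direction 8 of 10 members differed by 2-fold or more, where 29.8% of genes did. This count includes the members higher in the fetal class, for which they were chosen, so nothing is read from it. At 2000 UMIs per cell, Tmem176b was detected in 94.7% of the marrow cells and 43.4% of the fetal ones, and Sdc4 in 72.9% and 43.3%. MHC class II genes lead the marrow cluster and not the fetal ones.

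**Figure D4:**
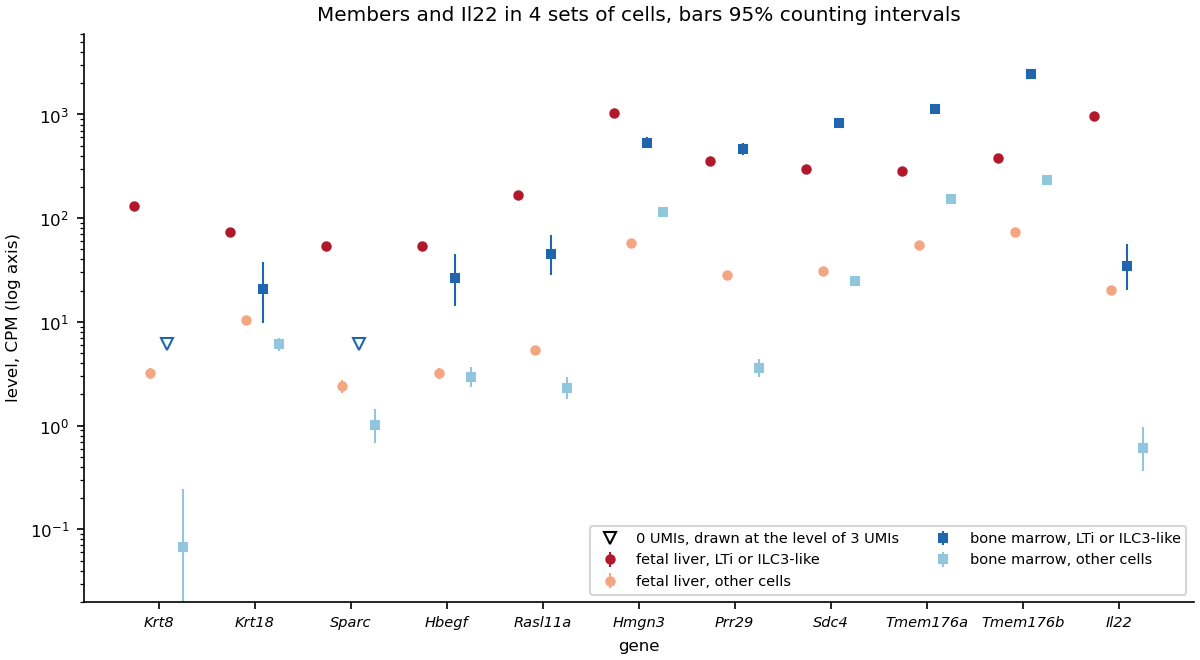
Level in CPM (log axis) of the 10 genes and Il22 in LTi or ILC3-like and other cells of fetal liver (red and orange circles) and bone marrow (dark and light blue squares), with 95% counting intervals. An open triangle marks 0 UMIs, drawn at the level of 3 UMIs, and Krt8 to Rasl11a are highest in the fetal class while Sdc4, Tmem176a and Tmem176b are highest in the marrow class.

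Within bone marrow, the 8 members detected in cluster 12 with at least 10 CPM were all at least 2-fold higher there than in the other 7089 marrow cells, where 9.55% of 7267 genes were, and none was 2-fold lower, where 10.8% were. Krt18, Hbegf, Rasl11a and Prr29 reached 10 CPM only through cluster 12, and Krt8 and Sparc had 0 UMIs there, so nothing is read from this count. Prr29 was the most concentrated, at 466 against 3.60 CPM (130-fold), and these 2.33% of cells held 68.2% of the library's Prr29 UMIs. Sdc4 was at 830 against 24.8 CPM (33.4-fold) and Rasl11a at 45.2 against 2.31 CPM (19.6-fold). Hmgn3 was less so, at 536 against 115 CPM, with cluster 3 of bone marrow next at 363 CPM.

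Il22 was rare in marrow. It was in 5 of the 169 cluster 12 cells, with 17 UMIs in all, and in 13 of the 7089 other cells. In those 5 cells Prr29 had 36 UMIs and Hbegf 5 UMIs, and Krt8, Krt18 and Sparc had none. This is too few cells for a relation to be described.

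Most genes listed beside the members, by family, partner or name, lay within 2-fold or under 10 CPM in the contrast of LTi or ILC3-like with other fetal liver cells. Of 18 other keratin and intermediate filament genes, 9 had 0 UMIs in the LTi or ILC3-like cells, Krt19, Krt7 and Krt5 among them, 5 had at least 10 CPM, and none of the 5 was 2-fold higher or lower. Vim, the filament protein of blood cells, was at 325 against 284 CPM and Krt10 at 62.0 against 37.1 CPM. Among EGF receptor ligands and receptors, 1 of 3 genes at that level was higher, the ligand Areg (22.3 against 9.55 CPM, log2 ratio 1.22), while the receptor genes Egfr and Erbb4 had 0 UMIs.

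Of the list of syndecans, glypicans and heparan sulfate genes, 3 others had at least 10 CPM. These were Sdcbp (102 against 88.0 CPM), Ext2 and Hs2st1, and none passed 2-fold. No other syndecan or glypican gene reached 10 CPM, and the highest of those in the class was Sdc1, at 6.89 against 2.98 CPM (log2 ratio 1.21, 0.80 to 1.60). No other gene of the SPARC family and matrix list reached 10 CPM, and 8 of its 15 other genes had 0 UMIs. Among 7 other genes of HMGN, HMGA and HMGB proteins, none was 2-fold higher and 1 was lower, Hmga2, a chromatin protein of fetal progenitors, at 1.77 against 52.3 CPM. Hmgn2 (302 against 568 CPM) and Hmgn1 (642 against 611 CPM) lay within 2-fold.

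Of the small GTPases, Rasd1 was higher (20.8 against 7.26 CPM), as the only relative with at least 10 CPM. Both MS4A relatives of the TMEM176 genes at that level, Ms4a4b and Ms4a6b, were lower, at 0.394 against 20.3 CPM and 0.492 against 13.8 CPM. The ILC3 and LTi programme itself, which shares genes with the marker list that named the clusters, had 14 of 18 genes higher and none lower. Its largest log2 ratios were those of Il22 (5.58), the chemokine receptor gene Ccr6 (5.57), the interleukin 23 receptor gene Il23r (4.52) and the lymphotoxin gene Lta (4.35). Of 10 genes of dividing cells, none was higher and 5 were lower.

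Since keratins, Sparc and Hbegf are well known from other cells of the liver, markers of those cells were read in the same set. Of 6 epithelial markers, Cdh1, Krt19, Krt7 and Cldn4 had 0 UMIs in the LTi or ILC3-like cells, and the list summed to 2.95 CPM there and 8.80 CPM in the other cells. Cldn7 alone of the list was higher in the class, at 1.77 against 0.505 CPM (log2 ratio 1.81, 0.92 to 2.64). Of 6 mesenchymal markers, Col1a1, Col1a2, Col3a1 and Dcn had 0 UMIs, and the sums were 4.24 and 2.33 CPM, of which Lum made up 3.15 and 0.518 CPM (log2 ratio 2.61, 1.90 to 3.30). Megakaryocyte markers, of cells rich in SPARC, summed to 8.57 and 33.5 CPM, and endothelial markers to 31.3 and 44.3 CPM. Hepatoblast markers summed to 26.5 and 17.8 CPM, with Fgb at 0 UMIs and Apoa2 highest (13.4 against 5.82 CPM), and the part of these markers in the members' levels was not tested.

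The genes most like the members were found over the 22 fetal liver clusters, among 4789 genes with at least 50 CPM in their highest cluster. Pearson's r of log2(CPM + 10) with the mean z score of the 10 was highest for Il17re (0.91), a receptor subunit of the interleukin 17 family, and Il22 (0.90), then Lta (0.88), Ccdc184 (0.87) and Espn (0.85). The clusters share 1 library and differ in depth and in size, from 11 to 1397 cells, so these are descriptions. The members were chosen as high in these clusters, so that nearness to other genes high there is largely fixed by the choice.

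Taken singly, Krt8, Hbegf and Rasl11a each had Il22 and Il17re as their nearest 2 genes (r from 0.84 to 0.88). Sparc was nearest to Il22 (0.83), and Prr29 to Il17re (0.99). Hmgn3 was nearest to Xlr4b (0.93) and Xlr4c (0.89), genes of an X-linked cluster. Krt18 was nearest to Atp2c1 (0.85), Sdc4 to Serinc2 (0.87), Tmem176a to Sppl2a (0.93) and Tmem176b to Tpp2 (0.85). The highest level of Tpp2, 56.5 CPM, was in cluster 22, which has 11 cells with a median of 1375 UMIs, so its place is uncertain.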

How the data were processed

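Raw UMI counts for every gene in every cell were deposited by the authors, with no normalization: per the labels' protocols, 10x Chromium 3′ libraries were sequenced, UMIs counted and barcodes without a cell filtered out. The deposited gene and barcode lists hold no measurements. The submitters' processing notes name mm10 and Seurat 4.0. Per the labels, both samples are 6 to 8 weeks old, which was not used for the fetal one. The sources used here do not give the aligner, annotation release or strand setting.

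The members and lists were chosen with earlier results of these data known. Cells with under 500 genes or over 10% mitochondrial UMIs were left out (363 of 8946 fetal liver and 109 of 7367 bone marrow barcodes). Each library was clustered with leidenalg 0.10.2 at resolution 1.0 (2000 variable genes, 30 components, 20 neighbours), without the members, Il22, Xist, mitochondrial and ribosomal genes. A cluster took the name of the list with the largest share of raised markers (at least 2-fold over the rest and 10 CPM), if that was at least 50% of the list and the leading genes did not go against it. This naming rule was set after the data were seen. Counts were summed over cells and divided by their total to give CPM, and log2 ratios have exact conditional 95% intervals. A gene counted as higher or lower at 2-fold (1.5-fold for Il22) if it had at least 10 CPM in the higher set. The limit at 0 is 3 counts. From each companion list up to 4 genes at that level were to be named, by largest ratio. Further ones were chosen after their values were seen. The genes most like the members follow the rule given with them. On simulated counts for fetal liver over bone marrow, all 200 genes changed by 2.5-fold among 6281 were found past 2-fold and none of the others. Those counts varied by counting error alone, with no variation between cells, animals or libraries. They check the arithmetic only and say nothing of how the calls between tissues would repeat. Coordinates are from GENCODE M21.

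Alternatives were other scalings (edgeR 4.0.16 for TMM), equal cell weights, thinning, other clusters and other filters. A planned split of the cells, tried for the class contrast and the Il22 contrast, is not reported here, and its counts of members differed from those given.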

Additional observations from a re-analysis of the deposited data

How the results depend on the processing

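No paired analysis was possible because each tissue had 1 library and no replicates. The count of members whose fetal liver level was at least 2 times the bone marrow level (4) was 7 with each cell weighing the same and 1 without the LTi or ILC3-like cells of both libraries, an alternative added after the data were seen. It was between 4 and 6 under the other 5. All 10 members were at least 2-fold higher in LTi or ILC3-like than in other fetal liver cells under all 7 alternatives reported. The count at least 1.5-fold higher with Il22 (1) was 2 with at least 4 Il22 UMIs against 0, 2 with cells thinned to 5000 UMIs, 0 at resolution 0.5, 0 with each cell weighing the same and 0 without cells with a Mki67 or Top2a UMI. Beyond the fewer cells or other weights these settings use by construction, the cause was not tested. Of 209 single-gene ratios under the alternatives reported, 70 moved beyond their counting interval, and 2 changed sign: Hmgn3 between tissues without the LTi or ILC3-like cells (-0.98) and Sparc with Il22 without the deepest 10% of cells of each class (-0.01). A median-ratio factor moved all log2 ratios between tissues by 0.162 and TMM by 0.135. In the marrow class 3 UMIs are 6.16 CPM.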
